A study of Mus musculus with 6 samples.

Results

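The genes described are 45 complement, clotting, anticoagulant and fibrinolysis genes of the mouse, taken by symbol from the 24063 symbols in the count files. The list was chosen with earlier results of these data known, and all 45 genes had counts. They were followed by bulk RNAseq in lung ECs, which the study bound to magnetic beads through CD31, from male C57BL6 mice with no engineered allele. One group of 3 libraries came from sham-operated mice and the other 3 from mice 7 days after unilateral pneumonectomy (PNX), in which a lung is taken out and the lung left behind grows. Every library is a pool of 2 mice, aged 8 weeks by the labels, whereas the methods of the study give an older age. The comparison asks which of these genes differ between regenerating and sham lungs at day 7.

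Complement is a cascade of plasma and cell surface proteins that marks targets for removal and inflammation. The classical pathway starts with C1q bound to its target, the lectin pathway with ficolins and collectins that recognize sugars, and both lead, like the alternative pathway, to cleavage of C3, which releases the anaphylatoxin C3a and leaves C3b on the target. Coagulation starts when tissue factor meets factor VII and ends with thrombin and crosslinked fibrin. ECs hold it in check with thrombomodulin, the protein C receptor and tissue factor pathway inhibitor, and start fibrin removal by releasing plasminogen activators. The liver makes most of the plasma proteins of both cascades, macrophages make C1q and properdin, and many cell types make C3.

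By the labels, replicates 1 and 2 of both groups are re-used data (the earlier deposit) and replicate 3 is not (the later deposit). Within a group, replicates 1 and 2 lay close to counting error of one another (chi-square per degree of freedom 1.75 in sham and 1.57 in PNX, against 67.9 to 86.4 for pairs with replicate 3), so the pair was added up to 1 sample, with n = 2 samples per group unless 6 libraries are named. Total counts lay between 29526989 and 81282871 per library, and 39 of the 45 genes had at least 50 counts in every library, while all 45 passed the filter on low counts. The endothelial markers Pecam1 and Cdh5 were high in every library, at 2038 to 2494 and 1287 to 1515 CPM (counts scaled to the size of the library). Of the endothelial list, 0 of 10 genes passed the thresholds used below, with a median log2 fold change of −0.19.

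The chains of C1q are encoded by 3 neighbouring genes on chromosome 4, in the order C1qb, C1qc and C1qa (GRCm38, 136880129 to 136898803, minus strand), and in these libraries their levels moved together. The promoters of C1qb and C1qc are shown because of this, that of Fcna because it had the largest log2 fold change of the 45 genes, and that of C3 because all pathways meet in it. RefSeq promoter windows, 250 bases before to 50 bases after the start of transcription on GRCm38.p6, were found for 31 of the 45 genes, and not for C1qa, C4b and Cfb among the genes that passed the test below. Capitals in C1qb, C1qc and Fcna mark the letters GAGGAA, the core bound by the myeloid factor PU.1, on either strand. In C3 they mark the C/EBP letters TTNNGCAA, also on either strand, and the letters TATAAA.
C1qb, chr4:136886151-136886450, minus strand: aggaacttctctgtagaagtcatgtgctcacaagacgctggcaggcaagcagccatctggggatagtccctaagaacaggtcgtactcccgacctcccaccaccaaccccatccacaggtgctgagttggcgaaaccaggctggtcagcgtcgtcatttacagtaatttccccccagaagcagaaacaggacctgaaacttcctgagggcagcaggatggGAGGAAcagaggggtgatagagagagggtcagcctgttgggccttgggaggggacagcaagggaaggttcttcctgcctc
C1qc, chr4:136892865-136893164, minus strand: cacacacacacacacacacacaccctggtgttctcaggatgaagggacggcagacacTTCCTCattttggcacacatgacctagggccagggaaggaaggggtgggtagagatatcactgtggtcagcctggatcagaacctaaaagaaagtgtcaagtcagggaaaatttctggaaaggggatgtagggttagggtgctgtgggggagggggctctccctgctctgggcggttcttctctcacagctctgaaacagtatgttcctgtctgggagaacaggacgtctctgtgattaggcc
Fcna, chr2:25627925-25628224, minus strand: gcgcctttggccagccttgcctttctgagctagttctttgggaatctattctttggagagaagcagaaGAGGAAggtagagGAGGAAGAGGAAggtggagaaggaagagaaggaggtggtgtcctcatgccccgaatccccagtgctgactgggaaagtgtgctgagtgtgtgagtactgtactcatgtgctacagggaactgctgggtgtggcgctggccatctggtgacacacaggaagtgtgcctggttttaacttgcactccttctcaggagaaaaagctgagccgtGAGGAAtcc
C3, chr17:57228087-57228386, minus strand: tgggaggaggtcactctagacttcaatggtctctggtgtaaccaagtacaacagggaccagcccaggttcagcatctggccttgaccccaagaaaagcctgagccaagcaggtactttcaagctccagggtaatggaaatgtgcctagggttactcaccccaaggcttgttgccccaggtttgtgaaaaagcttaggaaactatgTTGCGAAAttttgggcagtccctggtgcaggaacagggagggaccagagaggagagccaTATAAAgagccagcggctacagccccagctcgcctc
GAGGAA occurred 1 time in C1qb, 1 time in C1qc and 4 times in Fcna, where the first 3 sites lie from 182 to 163 bases before the start. These letters were found in 28.3% of the 32851 promoter windows of this length and in 13 of the 31 windows of these genes. Of the other genes that passed, the Cfp window held them 2 times and the F13a1 and F2rl3 windows 1 time each. The C3 window held TTNNGCAA on the reverse strand, read as TTGCGAAA, from 45 bases before the start (10.8% of all windows hold these letters). It held TATAAA from base 15 after the start (13.6%). The C3ar1 and Procr windows held the AP-1 letters given below, C3ar1 also TATAAA and Procr also TTNNGCAA. The F13a1 window also held the NF-kB letters given below. The Serpinf1 window held none of the 8 motifs searched. The others, with their share of all windows, were the MARE half-site TGCTGAC (4.67%), which Fcna also held, part of an NF-kB site, GGANTTTCC (1.25%), the AP-1 site TGANTCA (7.81%), part of an interferon response element, GAAANNGAA (8.56%), and the STAT site TTCNNNGAA (8.3%). A match is a description of the letters and was not tested for binding.

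In the fit with the replicate block, in which the deposit is a term, 13 of the 45 genes were higher after PNX in edgeR's quasi-likelihood test and 0 lower. Passing meant an adjusted p under 0.01 together with a log2 fold change beyond 1 in either direction. The genes were C1qa, C1qb, C1qc and C4b of the classical pathway, Fcna of the lectin pathway, C3, Cfb and Cfp of the alternative pathway, the C3a receptor C3ar1, the clotting factor F13a1, the thrombin receptor F2rl3, the protein C receptor Procr, and Serpinf1. Among all 16598 genes tested, 3.89% passed as higher with the block and 1.23% as lower. Of the 13, 9 were among the 24 complement genes and 4 among the 21 coagulation genes. The median log2 fold change was 0.43 over the 45 genes, 0.74 over the complement genes and 0.32 over the coagulation genes, against −0.01 over all genes.

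The calls rested on the block. With the 4 samples and no block (the methods of the study name none), 0 of the 45 genes passed in edgeR, as did 0% of all genes, with adjusted p from 0.0720 (Fcna) to 1.0, and 16 of the 45 had an unadjusted p under 0.05. The fitted changes were alike without the block, with 15 of 45 log2 fold changes above 1 and 1 below −1 and a median of 0.44. On the 4 samples without the block, limma-voom called 0 of the genes, while DESeq2 called 8, all higher (3.01% of all genes were). With the 6 libraries as separate replicates, edgeR called 7, which were C1qa, C1qb, C1qc, Fcna, C3ar1, F2rl3 and Procr (background 2.28%), and DESeq2 called 11 (4.19%), all higher. The fit with the block has 1 residual degree of freedom, and nothing in the labels says that the pools were made from separately treated cohorts, so the p-values measure only the spread between these samples, which may be technical.

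**Figure D1:**
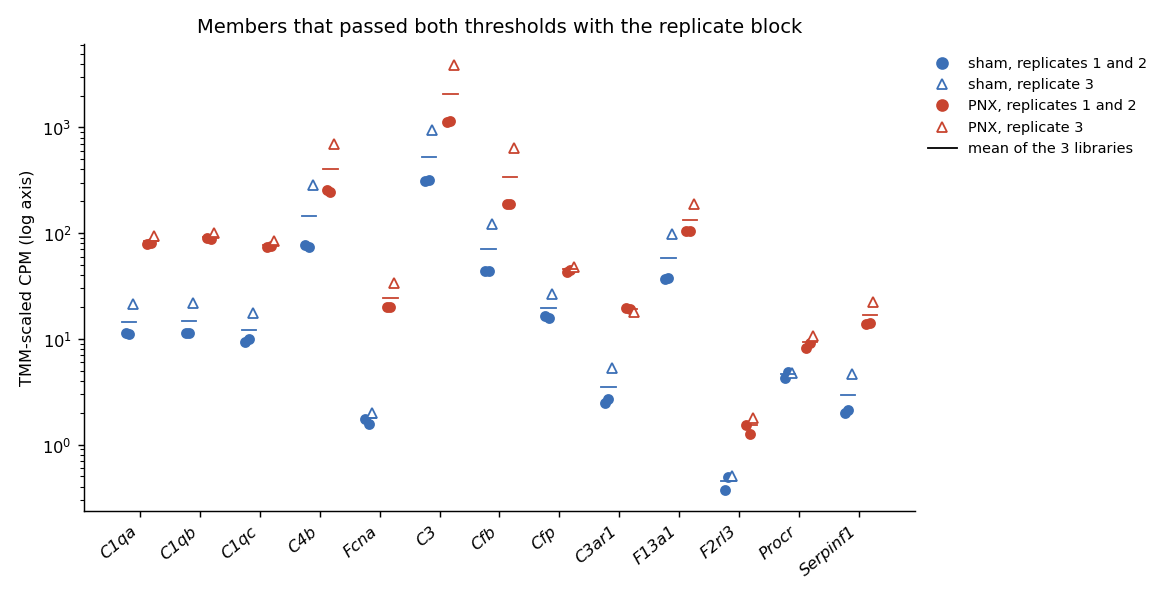
TMM-scaled counts (CPM, log axis) in each of the 6 libraries for the 13 genes that passed both thresholds with the replicate block. Filled circles are replicates 1 and 2, open triangles replicate 3, and lines the mean of the 3 libraries; every PNX library lies above every sham library in 12 of the 13 genes, while for C4b sham replicate 3 lies above PNX replicates 1 and 2.

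The samples were also compared without a model. The groups did not overlap in 25 of the 45 genes, with PNX above sham in 20 and below in 5, against 21.6% and 21.2% of all genes. Taken as 6 libraries the counts were 19 above and 4 below (18.8% and 17.9% of all genes). Within the deposits, 29 of the 45 genes were higher after PNX in both and 9 lower in both (36% and 39.3% of all genes), and 7 went opposite ways. The share of genes higher after PNX thus lay above that of all genes by each of these counts, and the share lower lay below it. Since the list was chosen with earlier results of these data known, these shares describe the listed genes only. Of the 54 other tested genes of both systems, named further below, 18 lay above without overlap and 12 below. As 6 libraries these counts were 17 and 8, and within the deposits 25 of the 54 were higher in both and 20 lower in both. An exact two-sided permutation test over the 4 samples cannot go below p = 0.333, so none was run for single genes.

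Of the 6 classical pathway genes, 4 rose with the block, the 3 chains of C1q by about the same amount and C4b by less, and the other 2 had a lower log2 fold change. C1qa was at 11.5, 11.1 and 21.2 CPM in the sham libraries and 78.4, 80.4 and 93.05 CPM in the PNX libraries (replicates 1, 2 and 3, as in all values below), and its log2 fold change with the block was 2.49 ± 0.15 (SE, as after every log2 fold change here; edgeR adjusted p = 6.26e-05). C1qb was at 11.2, 11.3 and 21.6 CPM in the sham libraries and 89.1, 88.6 and 99.8 CPM in the PNX libraries, with a log2 fold change of 2.61 ± 0.17 (edgeR adjusted p = 7.94e-05). C1qc was at 9.24, 9.94 and 17.4 CPM in the sham libraries and 73.5, 75.6 and 84.5 CPM in the PNX libraries, with a log2 fold change of 2.63 ± 0.15 (edgeR adjusted p = 4.94e-05). For each chain the lowest PNX library was above the highest sham library, sham replicate 3 being the highest of its group. The change was 6.91, 7.73 and 7.64-fold for C1qa, C1qb and C1qc in the earlier deposit and 4.47, 4.71 and 4.95-fold in the later one. Per transcript length (TPM), C1qb was at 0.998 to 1.04 times the level of C1qa in the sham libraries and 1.09 to 1.16 times after PNX, and C1qc at 0.828 to 0.922 times in sham and 0.932 to 0.964 times after PNX. The transcripts of the chains were thus present in near equal amounts in every library.

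C4b (chromosome 17, 34728380 to 34743882) encodes C4, which C1s cleaves after C1q has bound. It was at 77.7, 74.04 and 285 CPM in the sham libraries and 254, 246 and 702 CPM in the PNX libraries, and both groups were highest in replicate 3, so that the libraries overlap while PNX lay above sham within each deposit (3.24-fold in the earlier and 2.51-fold in the later). Its log2 fold change was 1.51 ± 0.12 with the block (edgeR adjusted p = 1.89e-04) and 1.42 ± 0.79 without it (edgeR adjusted p = 0.57). C4a, a near-identical copy whose reads the counting could have shared with C4b, was at 1.14, 0.977 and 1.19 CPM in the sham libraries and 1.22, 1.19 and 1.58 CPM in the PNX libraries. C1ra, one of the proteases of C1, and C2, cut by C1s to form the C3 convertase, had adjusted p of 0.00274 and 0.00179 with the block, but log2 fold changes of 0.81 and 0.67, under the threshold of 1. C1ra has a near-identical copy, C1rb. Between the deposits C2 differed by more than between the groups, being 3.31 times (sham) and 3.19 times (PNX) higher in the later one.

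Among the 5 lectin pathway genes, Fcna (chromosome 2, 25624666 to 25628030), which encodes ficolin A, rose and the other 4 did not pass. Fcna was at 1.74, 1.56 and 1.99 CPM in the sham libraries and 20.1, 20.02 and 33.4 CPM in the PNX libraries, and its log2 fold change of 3.78 ± 0.15, or 13.8-fold, was the largest of the 45 genes (edgeR adjusted p = 1.69e-05 with and 0.072 without the block). All sham libraries were near one another and PNX replicate 3 was the highest. Fcna overlaps the antisense gene Fcnaos, and whether the counting used strand is not stated. Colec12, a scavenger receptor of the collectin family and the most abundant of the group per length, was at 122, 126 and 116 CPM in the sham libraries and 187, 189.7 and 118 CPM in the PNX libraries, with PNX replicates 1 and 2 above sham and replicate 3 level with it (log2 fold change 0.32 ± 0.13, edgeR adjusted p = 0.116). The lectin pathway protease gene Masp2 was lower in every PNX library than in any sham library, at −0.48 on the log2 scale (edgeR adjusted p = 0.0276), which did not pass. Masp1 and the collectin gene Colec11 were at 0.31 to 2.28 CPM and had log2 fold changes of 0.17 and 0.35.

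All 3 genes of C3 and the alternative pathway rose with the block. C3 (chromosome 17, 57203970 to 57228136), the central protein of all pathways, was at 309, 318 and 953 CPM in the sham libraries and 1132, 1152 and 3879 CPM in the PNX libraries, a log2 fold change of 1.95 ± 0.13 or 3.85-fold (edgeR adjusted p = 9.04e-05). Cfb (chromosome 17, 34856374 to 34862518), which encodes factor B, the protease of the alternative convertase, was at 44.1, 44.2 and 122 CPM in the sham libraries and 188, 187 and 639.9 CPM in the PNX libraries, a log2 fold change of 2.24 ± 0.11 (edgeR adjusted p = 2.86e-05). In both genes replicate 3 was the highest library of its group, and sham replicate 3 lay below every PNX library. Without the block their log2 fold changes were 2.00 ± 0.80 and 2.33 ± 0.77, with adjusted p of 0.415 and 0.331 in edgeR. The later deposit was higher by 2.98 times in sham and 3.45 times after PNX for C3, and by 2.72 and 3.46 times for Cfb. Without PNX replicate 3, and so with the deposits unbalanced, the log2 fold changes fell to 0.85 for C3 and 1.17 for Cfb, and without sham replicate 3 they rose to 3.00 and 3.23. Cfb overlaps the readthrough gene Gm20547, as does its neighbour C2, 85 bases away.

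Cfp (chromosome X, 20925454 to 20931555), which encodes properdin, the stabilizer of that convertase, was at 16.4, 15.6 and 26.7 CPM in the sham libraries and 43.2, 44.99 and 48.02 CPM in the PNX libraries. Its log2 fold change was 1.16 ± 0.14 (edgeR adjusted p = 0.00144), the smallest of the group, and it lost its call without PNX replicate 1 (edgeR adjusted p = 0.0144). The 3 PNX libraries were close to one another, whereas sham replicate 3 was above sham replicates 1 and 2, so the change was 2.70-fold in the earlier deposit and 1.84-fold in the later.

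The terminal pathway genes did not pass. C7 and C6 encode components of the membrane attack complex. C7 was at 117, 118 and 173 CPM in the sham libraries and 177, 178 and 106 CPM in the PNX libraries, higher after PNX in the earlier deposit and lower in the later one, so its log2 fold change was −0.04 ± 0.25. C6 was at 12.2, 12.7 and 12.4 CPM in the sham libraries and 10.01, 11.3 and 7.98 CPM in the PNX libraries, lower in every PNX library than in any sham library, but with an edgeR adjusted p of 0.0629 and a log2 fold change of −0.41 ± 0.13.

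Of the anaphylatoxin receptors, C3ar1 (chromosome 6, 122847138 to 122856161), the receptor of C3a, rose and C5ar1, the receptor of C5a, did not pass. C3ar1 was at 2.49, 2.68 and 5.26 CPM in the sham libraries and 19.5, 19.3 and 18.1 CPM in the PNX libraries, a log2 fold change of 2.40 ± 0.24 or 5.27-fold (edgeR adjusted p = 6.88e-04). The PNX libraries lay within a narrow range and sham replicate 3 was about as far above sham replicates 1 and 2 as for C1q. C5ar1 was at 48.03, 50.1 and 98.4 CPM in the sham libraries and 58.9, 58.1 and 97.1 CPM in the PNX libraries, with a log2 fold change of 0.12 ± 0.09 (edgeR adjusted p = 0.372). In the later deposit its groups were level.

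The 6 complement inhibitors had a median log2 fold change of 0.30 and 0 passed. The most abundant per length were Serping1, the C1 inhibitor, and Clu, clusterin, which binds the terminal complex. Serping1 was at 199.5, 202 and 264 CPM in the sham libraries and 251, 251 and 353 CPM in the PNX libraries (log2 fold change 0.37 ± 0.09, edgeR adjusted p = 0.0284). Clu was at 157, 156 and 188 CPM in the sham libraries and 258, 259.9 and 408 CPM in the PNX libraries, with PNX above sham throughout and an edgeR adjusted p of 0.00242, but its log2 fold change of 0.92 ± 0.12 was under 1. Cfi, factor I, which cuts C3b, had the largest change of the group, 1.61 ± 0.35 on the log2 scale, at 0.238 to 1.11 CPM (edgeR adjusted p = 0.0172). It was singled out after its values were seen. The membrane inhibitors Cd55, Cd59a and Cr1l lay between −0.15 and 0.23, and Cd59a has a related gene, Cd59b.

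**Figure D2:**
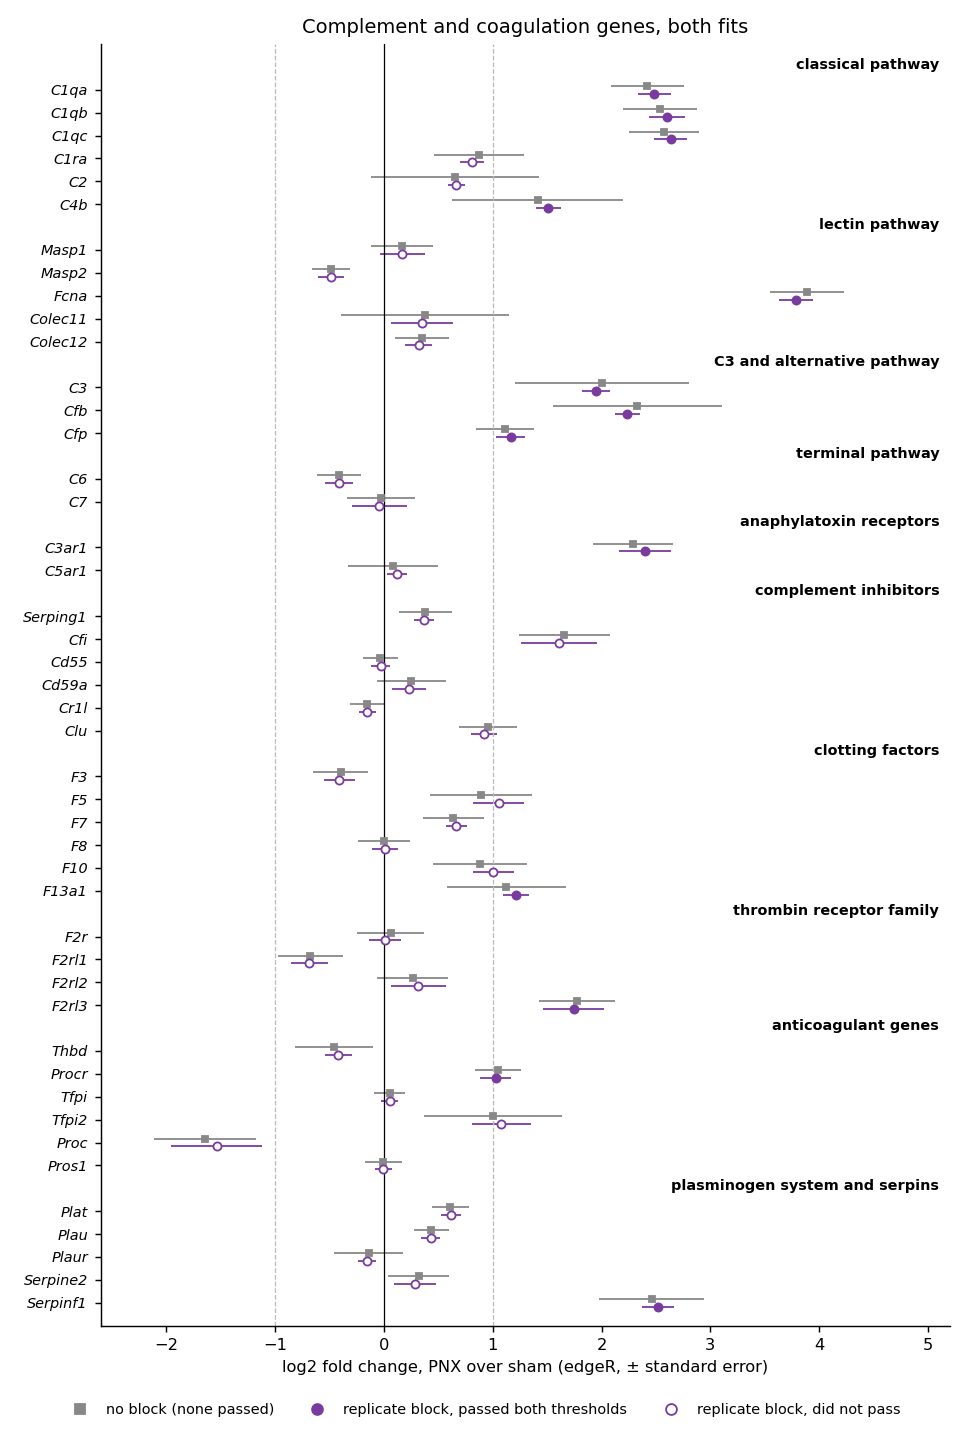
Log2 fold change of PNX over sham with its standard error from edgeR for all 45 genes, grouped by role, without the block (grey squares) and with the replicate block (circles, filled where both thresholds were passed). The estimates of both fits lie close together and the errors are smaller with the block, as in C3, Cfb, C4b and C2; dashed lines are at −1 and 1.

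Of the 6 clotting factors, F13a1 passed and the tissue factor gene F3 alone had a negative log2 fold change. F13a1 (chromosome 13, 36867178 to 37050244), the A subunit of factor XIII, which crosslinks fibrin and which macrophages and platelets hold, was at 36.9, 37.6 and 99.1 CPM in the sham libraries and 105, 104 and 190.5 CPM in the PNX libraries, a log2 fold change of 1.22 ± 0.12 (edgeR adjusted p = 7.07e-04). Every PNX library was above every sham library, but only narrowly, since sham replicate 3 was close to PNX replicates 1 and 2. F13a1 overlaps 2 annotated antisense genes. F7, factor VII, was at 21.6, 22.6 and 35.5 CPM in the sham libraries and 38.7, 39.03 and 50.4 CPM in the PNX libraries, with no overlap of the groups and an edgeR adjusted p of 0.00354, at a log2 fold change of 0.66 ± 0.10, under 1. F10 and F5, the factors that form prothrombinase, were just outside the thresholds, with log2 fold changes of 1.01 and 1.06 and edgeR adjusted p of 0.0101 and 0.0195. Both passed with the block in DESeq2 and in limma-voom, and in edgeR with 6 libraries and the deposit as covariate. F7 and F10 are neighbours on chromosome 8, 1498 bases apart. F3 had a log2 fold change of −0.41 ± 0.14 and F8 of 0.01 ± 0.12, with edgeR adjusted p of 0.0803 and 0.965.

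The thrombin receptor family holds F2r (PAR1), the main thrombin receptor of ECs, F2rl1 (PAR2), cut by other proteases, F2rl2 (PAR3) and F2rl3 (PAR4), the latter best known from platelets. F2r, the most abundant per length, was at 139, 136 and 122 CPM in the sham libraries and 173, 179 and 96.4 CPM in the PNX libraries, and its direction differed between the deposits (log2 fold change 0.01 ± 0.14). F2rl1 was at 6.74, 6.45 and 5.76 CPM in the sham libraries and 4.47, 5.06 and 2.95 CPM in the PNX libraries, with all PNX libraries below all sham libraries and a log2 fold change of −0.68 ± 0.17 (edgeR adjusted p = 0.029), which did not pass. F2rl3 (chromosome 8, 72761880 to 72763874) was at 0.372, 0.488 and 0.505 CPM in the sham libraries and 1.52, 1.27 and 1.78 CPM in the PNX libraries, far below F2r, on 17 to 113 counts per library. It passed at a log2 fold change of 1.74 ± 0.28 (edgeR adjusted p = 0.00531), but not with any of 3 other scalings, nor without replicate 1 of either group, with adjusted p up to 0.0229 in edgeR. DESeq2 with the block did not call F2rl3 either (DESeq2 adjusted p = 0.0122).

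Of the anticoagulant genes, Procr passed and Thbd, the most abundant of all 45 genes in sham, did not. Thbd encodes thrombomodulin, on which thrombin activates protein C. It was at 1663, 1652 and 942 CPM in the sham libraries and 1134, 1134 and 770.0 CPM in the PNX libraries, lower after PNX within each deposit and lower in the later deposit in both groups, so that the libraries overlap (log2 fold change −0.42 ± 0.12, edgeR adjusted p = 0.0524). Procr (chromosome 2, 155751117 to 155755471), the endothelial protein C receptor, was at 4.23, 4.83 and 4.78 CPM in the sham libraries and 8.24, 9.13 and 10.6 CPM in the PNX libraries, which was 2.04-fold and passed narrowly (log2 fold change 1.03 ± 0.14, edgeR adjusted p = 0.00292). Its call was lost without sham replicate 1 and without PNX replicate 2, where the log2 fold change came to 1.0 or under. Procr also did not pass in limma-voom with the block (log2 fold change 0.98), or in edgeR with 6 libraries and the deposit as covariate. Tfpi, the inhibitor of the tissue factor and factor VII complex, was at 109.6, 109 and 98.3 CPM in the sham libraries and 115, 113 and 102 CPM in the PNX libraries, and its log2 fold change of 0.05 ± 0.08 was small beside the error. Pros1, protein S, was likewise at −0.00 ± 0.08. Tfpi2 and Proc, at most 4.09 and 0.837 CPM, had log2 fold changes of 1.08 ± 0.27 and −1.53 ± 0.42, with adjusted p of 0.0308 and 0.0388 in edgeR. Proc, protein C, which the liver makes, had 4 to 60 counts per library, each read entering under 4 transcripts with identical counts.

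Among the plasminogen system and serpins, Serpinf1 rose. It lies on chromosome 11 (75409769 to 75422701), encodes pigment epithelium-derived factor, an inhibitor of angiogenesis that does not act on proteases, and was at 1.998, 2.14 and 4.66 CPM in the sham libraries and 13.8, 14.04 and 22.2 CPM in the PNX libraries, a log2 fold change of 2.52 ± 0.15 or 5.74-fold (edgeR adjusted p = 5.59e-05). The lowest PNX library was well above the highest sham library, replicate 3. Plat, the tissue plasminogen activator that ECs release, was at 64.9, 65.97 and 52.4 CPM in the sham libraries and 94.5, 94.3 and 85.9 CPM in the PNX libraries, without overlap and with an edgeR adjusted p of 0.00386, but its log2 fold change of 0.62 ± 0.09 was under 1. Plaur, the urokinase receptor, was at 88.5, 87.9 and 136 CPM in the sham libraries and 76.8, 78.9 and 125 CPM in the PNX libraries, with a log2 fold change of −0.15 ± 0.08. Plau, urokinase, and Serpine2, which inhibits thrombin and plasminogen activators, had log2 fold changes of 0.43 and 0.29 (edgeR adjusted p = 0.0141 and 0.334).

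**Figure D3:**
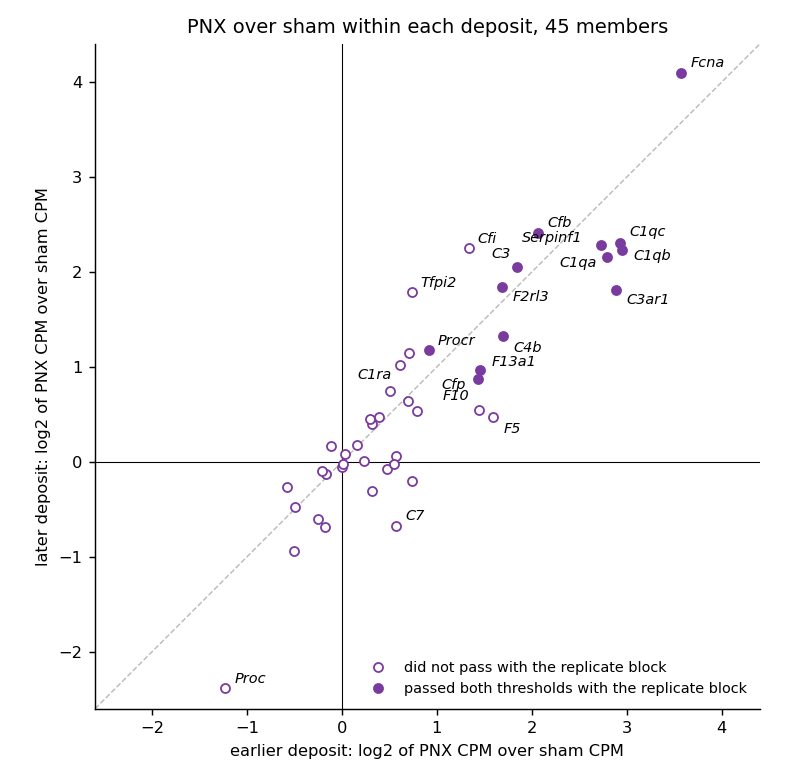
Log2 ratio of PNX over sham CPM in the later deposit (y axis) against that in the earlier deposit (x axis) for the 45 genes, with filled circles for the 13 that passed both thresholds with the replicate block. These 13 lie where both ratios are positive, from Procr and Cfp nearest the origin to Fcna, while 7 others lie where the deposits go opposite ways.

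Levels were compared between genes per length, as TPM. In sham the highest was Thbd at 963 ± 287 TPM (SD, n = 3 libraries, of which replicates 1 and 2 are near-duplicates), followed by Serping1 at 307 ± 47.6, C3 at 257 ± 178, Clu at 232 ± 23.2 and Plaur at 187 ± 47.6. C3 did not differ from its neighbours in this order beyond its spread. After PNX C3 was at 1006 ± 788 TPM and Thbd at 678 ± 133, which overlap. Thbd was above C3 in PNX replicates 1 and 2, at 755 and 755 TPM against 546 and 555 TPM, as in every sham library, and C3 was above Thbd in PNX replicate 3, at 1916 against 525 TPM. The mean of C3 without that library, taken after seeing the data, was 551 TPM. They were followed by Clu at 427 ± 126 and Serping1 at 391 ± 86.8, which overlap too, and C1qb at 217 ± 18.1. C1qb had been at 34.9 ± 13.8 TPM in sham. At the low end were Proc, Cfi and, in sham, F2rl3, at 0.240 ± 0.124, 0.428 ± 0.206 and 0.650 ± 0.09998 TPM.

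**Figure D4:**
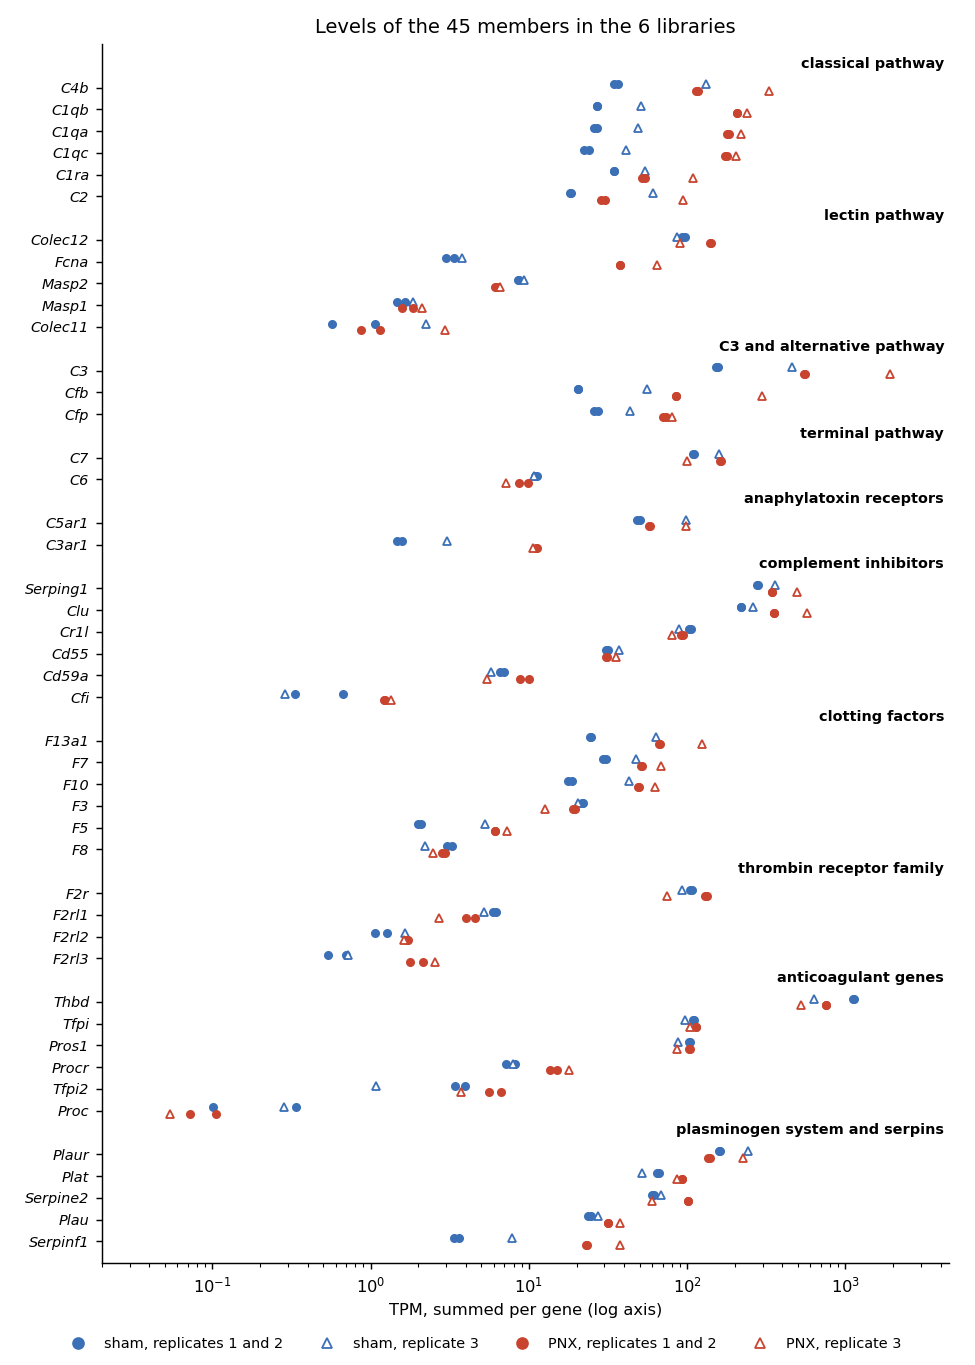
TPM of each of the 45 genes in the 6 libraries (log axis), summed per gene and ordered by mean within each role, with filled circles for replicates 1 and 2 and open triangles for replicate 3. Levels run from Proc, under 1 TPM, to Thbd and C3; the deposits differ most in C3, Cfb, C4b and C2, which are higher in replicate 3 of both groups.

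The deposits differed in several of these genes in both groups. The genes C3, Cfb, C4b, C2 and Colec11 were at least 2 times higher in the later deposit in both groups, and none was at most 0.5 times in both. Of these 5 genes, 3 passed with the block. The labels do not say what else differed between the deposits.

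Of 76 other genes of both systems, 54 had enough counts to be tested, and 5 rose and 1 fell with the block, against the shares of 3.89% and 1.23% of all genes. In bulk RNA, more cells of a type and more RNA per cell cannot be told apart, for these genes and for those above. Cfd, the factor D protease that activates factor B and that adipocytes make, was at 0.223, 0.195 and 0.0594 CPM in the sham libraries and 11.1, 12.3 and 1.07 CPM in the PNX libraries, a log2 fold change of 5.64 ± 0.31. PNX replicate 3 was far below PNX replicates 1 and 2. Vsig4, a receptor for C3b on resident macrophages, was at 0.124, 0.167 and 0.238 CPM in the sham libraries and 6.76, 5.82 and 6.77 CPM in the PNX libraries, a log2 fold change of 5.23 ± 0.25, with a narrow range in each group. A2m, a protease inhibitor, was at 0.261, 0.209 and 0.0891 CPM in the sham libraries and 0.848, 1.10 and 1.48 CPM in the PNX libraries (2.52 ± 0.45 on the log2 scale), and Ptx3, a pentraxin that binds C1q, at 3.97, 3.64 and 1.96 CPM in the sham libraries and 16.96, 17.5 and 12.5 CPM in the PNX libraries (2.36 ± 0.17). C1s1, the C1 protease that cleaves C4 and C2, was at 144, 145 and 221 CPM in the sham libraries and 309, 303 and 547 CPM in the PNX libraries (1.19 ± 0.11), and is like C1ra and C4b highest in replicate 3. Hc, which encodes C5, was at 147, 149 and 171 CPM in the sham libraries and 81.7, 82.2 and 53.8 CPM in the PNX libraries and changed by −1.25 ± 0.17 on the log2 scale, with PNX replicate 3 the lowest library of all. Their edgeR adjusted p with the block were 3.97e-05 (Cfd), 2.47e-05 (Vsig4), 0.00881 (A2m), 1.20e-04 (Ptx3), 3.75e-04 (C1s1) and 0.00248 (Hc). Without the block 0 of the 54 passed in edgeR. The 54 had a median log2 fold change of 0.13. Vwf, the von Willebrand factor of ECs, picked out with its value known, had a log2 fold change of −0.17 and did not pass.

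Markers of other cell types also differed between the groups in these libraries. CD31, used to isolate the cells, is also carried by platelets and leukocytes. Of the 10 macrophage genes, 2 rose with the block, Marco (log2 fold change 2.36) and Msr1 (2.37), while Lyz2, Csf1r and Mertk were at −0.01, 0.42 and −0.31 and did not pass. The summed level of the list was 2395 to 4380 CPM in sham and 3096 to 4103 CPM after PNX, so that the groups overlapped, and none of its genes was at 0. C1qa, C1qb, C1qc, Fcna, C3ar1, F13a1 and Vsig4, which macrophages are known to express, had log2 fold changes from 1.22 (F13a1) to 5.23 (Vsig4) with the block. They were picked out after their values were seen. Cfp, which macrophages make too, was at 1.16. The leukocyte receptor genes C5ar1, Itgam, Itgax and Itgb2 were at 0.12, 1.42, 0.02 and 0.21 with the block and did not pass. In the platelet list 1 of 8 rose, Pf4 (1.10), which macrophages can also express, and the sum was 54.8 to 87.2 CPM in sham and 75.9 to 77.9 CPM after PNX. Of the 6 neutrophil genes measured, 1 rose, Mmp8 (1.00), and the sums of 247 to 715 and 285 to 600.3 CPM overlapped.

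In the fibroblast list 5 of 8 genes rose, Lum, Col1a1, Dcn, Col1a2 and Col14a1, with log2 fold changes of 4.25 to 1.28, and the summed level was 909 to 1055 CPM in sham and 2363 to 3313 CPM after PNX, whereas Pdgfra and Tcf21 were at −0.49 and −0.34. In the mesothelial list 4 of 6 rose, among them Msln (1.81) and Wt1 (2.57), at sums of 158 to 383 and 328 to 856 CPM, highest in replicate 3 of each group. Fibroblasts and mesothelial cells are known to express C3, C4b, C1s1 and Serpinf1. In the other direction, 3 of 6 alveolar type 2, 1 of 5 alveolar type 1, 4 of 4 club airway and 1 of 6 dendritic cell genes fell with the block. The alveolar type 2 list summed to 5237 to 5740 CPM in sham and 1991 to 3396 CPM after PNX. For club airway the sums were 2417 to 4421 and 1138 to 1190 CPM. The alveolar type 1 list was at 1756 to 4466 and 709 to 3346 CPM, and the dendritic cell list at 277 to 288 and 216 to 220 CPM. By comparison, the endothelial list summed to 8754 to 10946 CPM in sham and 7994 to 9177 CPM after PNX. Of the B and T cell genes 0 of 5 passed, but all 5 were lower after PNX in both deposits, with a median log2 fold change of −0.91. For 4 of them the edgeR adjusted p was under 0.01 with a change under the threshold. Their sums were 70.8 to 88.6 CPM in sham and 38.7 to 47.2 CPM after PNX. Of the pericyte and smooth muscle genes 0 of 6 passed. The hepatocyte genes summed to at most 0.594 CPM in any library, with 4 of 6 under 10 counts in every library and Fgb at 0 counts in all 6, which allows up to 3 counts per library. The part of these cell types in the results was not tested.

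**Figure D5:**
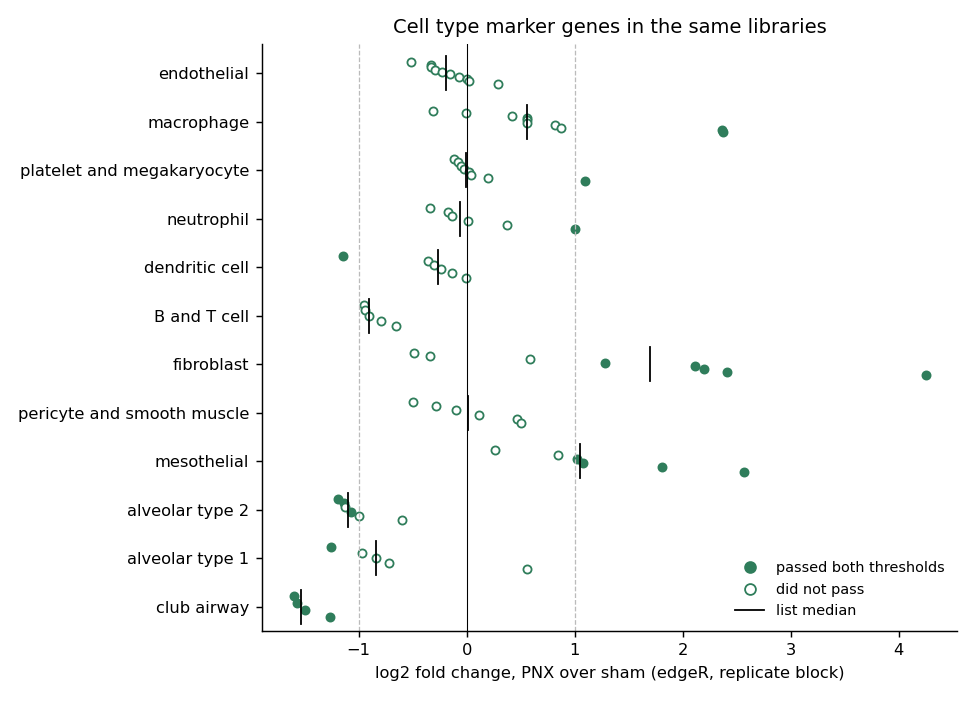
Log2 fold change of PNX over sham from edgeR with the replicate block for each marker gene (circles, filled where both thresholds were passed) of 12 cell types, with the list median as a line. Fibroblast and mesothelial medians lie at 1.70 and 1.05, macrophage at 0.56 with Marco and Msr1 apart near 2.4, endothelial at −0.19, and the airway and alveolar lists below 0.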

How the data were processed

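Bulk RNAseq of lung ECs from sham-operated mice and mice 7 days after PNX was analysed, 3 libraries per group by the labels. Per the labels and methods the authors aligned reads of stranded mRNA libraries to mm10 with STAR (version not stated). They deposited, per library, a whole-number count, FPKM and TPM for 33068 RefSeq transcripts. How reads were counted, and on which annotation release, is not given in the sources used here. Deposited counts were summed per symbol and tested. The deposited TPM were summed per symbol, with transcripts of identical counts in every library taken once, and served for levels only, and the deposited FPKM values were not used. Of the 45 genes, 9 have several transcripts and 4 of these (Cfb, Cd59a, Proc, F8) have transcripts with identical counts, which entered the summed count more than once in both groups alike. Positions and overlaps come from GENCODE vM21 and promoters from RefSeq (GRCm38.p6).

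Replicates of a group were set against each other by chi-square, using single-transcript symbols that had 20 counts or more in the pair (11747 genes in sham and 11758 in PNX for replicates 1 and 2). Counts were fitted with edgeR 4.0.16 in R 4.3.3 (quasi-likelihood F test, TMM scaling, filterByExpr by group, Benjamini-Hochberg adjustment across the whole table), and a gene passed at adjusted p under 0.01 with a log2 fold change beyond 1 in size. Standard errors (SE) were approximated from the fold change and the F statistic. CPM use TMM-scaled library sizes over the 6 libraries. The methods of the study name no block, so the first comparison had none. The labels pair the groups by deposit, and across 14774 genes with a mean count of at least 50 the gap between deposits in sham followed that in PNX (r = 0.740 by Pearson and rho = 0.737 by Spearman, across genes, which are not independent replicates), so values with the replicate block are printed throughout. The biological coefficient of variation was 0.236 without and 0.0973 with the block. Alternatives were DESeq2 1.42.0, limma 3.58.1 (voom), 6 separate libraries, other scalings, filters and thresholds, and leaving out libraries. The edgeR, DESeq2 and limma-voom fits of the 4 samples, with and without the block, were tested on simulated counts. The other alternatives were not. The simulated counts had the same deposit difference in both groups and the spread estimated with the block. They therefore do not show how the fits act where the deposit difference is unlike between the groups. The members, roles, marker lists and tests were chosen with earlier results of these data known. Values of every library are given for genes that passed in either fit and for the 2 of each role with the highest mean TPM. Other genes of both systems are named where they passed in either fit (at most 10), and further names with single values complete a role or a marker list. Adgre1 was matched by its older symbol.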

Additional observations from a re-analysis of the deposited data

How the results depend on the processing

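Which of the 45 genes passed depended on the replicate block. The direction of 14 of the 45 log2 fold changes, of which 0 passed with the block, differed from that of the fit without a block in at least 1 alternative. Over the fits without a block that leave out 1 replicate, the log2 fold changes ranged as follows for C2 (−0.41 to 1.76), Colec11 (−0.53 to 1.23), C7 (−0.0316 to 0.29), C5ar1 (−0.33 to 0.66), Cd55 (−0.12 to 0.10), F8 (−0.21 to 0.12), F2r (−0.022 to 0.42), Tfpi (−0.0218 to 0.12), Pros1 (−0.11 to 0.13) and Plaur (−0.53 to 0.19). Without replicates 1 and 2 of sham, the changed directions were those of Colec11 (−0.27), C5ar1 (−0.34), Thbd (0.0178) and Pros1 (0.12), and without replicates 1 and 2 of PNX those of Colec12 (−0.0094), Cd55 (0.0605), Cd59a (−0.21), F8 (−0.12), F2r (−0.42), Tfpi (−0.0131), Plaur (0.17) and Serpine2 (−0.11). With 6 libraries they were C7 (0.18), F8 (−0.0225) and Pros1 (0.0121) in edgeR, C7 (0.19), F8 (−0.0256) and Pros1 (0.01) with the deposit as covariate, and C7 (0.18), F8 (−0.0266) and Pros1 (0.0088) in DESeq2. In limma-voom they were F8 (−0.0236) and F2r (−0.009) without and F8 (−0.047) and F2r (−0.0093) with the replicate block. With the block and 1 library left out, they were F8 (−0.0117) and Pros1 (0.0015) without sham replicate 2, and F8 (−0.0064), F2r (−0.0024) and Pros1 (0.0048) without PNX replicate 2. Upper-quartile scaling gave F8 (−0.0006), library size alone Pros1 (0.0053) and, with the block, Pros1 (0.0022), and the transcript with the highest total Pros1 (0.0037) and, with the block, Pros1 (0.0008). The cause of these changes was not tested. Without the block, edgeR called 0 of the 45 and 0 of the other 54 genes of both systems, also with 3 other scalings, 2 other filters, the transcript with the highest total, an adjusted p under 0.05 and any library, or replicates 1 and 2 of a group, left out, and limma-voom called 0. DESeq2 on the 4 samples called 8 of the 45 and 6 others. The 6 separate libraries gave 7 and 2 in edgeR, 11 and 7 in DESeq2, and 15 and 8 in edgeR with the deposit as covariate. With the replicate block 13 and 6 passed in edgeR, 14 and 6 in DESeq2, and 14 and 9 in limma-voom. With the block and another scaling 12 of the 45 passed in each case, with 4 others under DESeq2's size factors or library size alone and 5 under upper-quartile scaling. The block gave 13 and 5 with the transcript with the highest total, and 18 and 10 at an adjusted p under 0.05. Added after seeing the data, the block without a filter gave 16 and 8, and with at least 10 counts in every library 13 and 2. Leaving out replicate 1 or 2 of a group, the block gave 11 to 13 of the 45 and 4 to 6 others, and 0 without it. Of the 13, 10 passed in all fits that hold the deposit as a block or covariate, and Cfp, F2rl3 and Procr did not. Without PNX replicate 3 and with no block, the log2 fold change of C4b fell from 1.42 to 0.48 and that of C2 from 0.65 to −0.41, and without sham replicate 3 they were 2.64 and 1.76, since the deposits are then unbalanced. The level was higher after PNX in 35 of the 45 by CPM and in 34 by TPM. Cfi, with 8 to 76 counts per library, and Proc, with 4 to 60, are limited by depth.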
